A study of Mus musculus and Homo sapiens with 10 samples.

Results

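Collagen IV and the enzymes and chaperones that build it were followed through 10 genes, taken by name from the gene tables of mouse and human embryonic stem cells (ESCs): *Col4a1*, *Col4a2*, *P4ha1*, *P4ha2*, *P4hb*, *Plod1*, *Plod2*, *Plod3*, *Serpinh1* and *Sparc*. The mouse table lists 25899 genes and the human one lists 35720, and all 10 genes are in both. Expression was measured by RNA-seq of total RNA in E14 mouse ESCs (mESCs), a cultured line grown feeder-free in 2i medium, in which LIF and inhibitors of MEK and GSK3 hold the cells in naive pluripotency, and in primed H9 human ESCs (hESCs), a cultured line in KSR medium with basic FGF (the study's methods give this medium for an H9 line with inducible KLF2 and NANOG transgenes, while the labels name only H9). VitC-treated cells received vitamin C (vitC) at 100 µg/ml for 24 h and control cells received none. There were 4 control and 4 vitC libraries of mESCs and 1 of each for hESCs. Replicates 1 to 4 of the mESCs carry the numbers 10, 11, 35B and 35C in the labels, each shared by a control and a vitC library; the labels do not say how 10 and 11 differ from 35B and 35C, or whether replicates are separate cultures, so p-values measure the spread between these libraries, part of which may be technical.

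Collagen IV is the network-forming collagen of basement membranes, the sheets on which epithelia and the early embryonic lineages sit, and its commonest trimer holds 2 chains from *Col4a1* and 1 from *Col4a2*. In the endoplasmic reticulum, prolyl 4-hydroxylase (a catalytic alpha subunit from *P4ha1* or *P4ha2*, with the beta subunit from *P4hb*) and the lysyl hydroxylases (*Plod1*, *Plod2* and *Plod3*) modify the chains. These hydroxylases are 2-oxoglutarate-dependent dioxygenases that need iron and vitC, the same broad family as the TET and Jumonji enzymes, and without vitC collagen is under-hydroxylated, as in scurvy. *Serpinh1* encodes HSP47, the chaperone of the folded triple helix, and *Sparc* encodes a secreted protein that binds collagen.

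Depth was modest in mESCs, with 3354852 to 6921305 recovered gene reads per library, against 15367652 and 17188555 in the hESC libraries. The mESC libraries held the pluripotency transcripts their label implies, with *Pou5f1* at 787 to 1218 and *Nanog* at 344 to 493 CPM (reads in each 1000000 gene reads, after TMM scaling between libraries), while the summed level of 10 primitive and parietal endoderm markers was 6.10 to 12.6 and that of 8 fibroblast markers 6.58 to 17.2 CPM. The parietal endoderm is the embryonic tissue that makes collagen IV in bulk. Of 9 endoderm markers tested, 0 were called with vitC without the replicate number, and 1 was higher in the fit that pairs libraries of the same number, the receptor gene *Pdgfra*, at 1.94 CPM in control and 3.81 with vitC (replicate block limma adjusted p = 0.0260). That fit called 10.8% of all genes. Of 7 pluripotency markers tested, 0 were called without the replicate number. The paired fit called 3 lower, among them *Nanog* (difference -0.25, replicate block limma adjusted p = 0.000647) and *Zfp42* (difference -0.13, replicate block limma adjusted p = 0.0356). It called 1 higher, *Tfcp2l1* (difference 0.11, replicate block limma adjusted p = 0.0231). The sums hide differences between library numbers, a comparison whose limits are given below. In 35B and 35C against 10 and 11, limma called 1 of 9 tested endoderm markers higher and 2 lower. Of 4 tested fibroblast markers it called 1 higher and 2 lower, where it called 40.5% of all genes. The hESC libraries, scaled by their total gene reads alone, had *SOX2* at 353 to 354, *POU5F1* at 67.3 to 68.2 and *LIN28A* at 1177 to 1207 CPM. Of the same 8 fibroblast markers, they had *COL1A1* at 1099 to 1182, *COL1A2* at 381 to 419, *THY1* at 126 to 128 and *PDGFRB* at 59.5 to 62.1 CPM. *COL3A1* was at 8.26 to 8.65, *POSTN* at 5.53 to 6.25, *LUM* at 0.456 to 0.989 and *DCN* at 0 in both. Among the 10 endoderm markers the highest were *DAB2* at 25.4 to 30.8, *PDGFRA* at 14.5 to 15.03 and *GATA4* at 3.32 to 3.37 CPM. Whether other cells contribute to the human collagen reads was not tested.

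The promoters of the 3 prolyl 4-hydroxylase genes are shown because the alpha subunits had the smallest p-values of the 10 genes with vitC in limma, with and without the replicate block. The 250 bases before each RefSeq start (GRCm38.p6) are printed on the gene's own strand, with capitals at each ACGTG or GCGTG on either strand, the core letters of the hypoxia response element bound by HIF. HIF itself is degraded after hydroxylation by other vitC-using dioxygenases.
P4ha1, chr10:59323046-59323295, plus strand: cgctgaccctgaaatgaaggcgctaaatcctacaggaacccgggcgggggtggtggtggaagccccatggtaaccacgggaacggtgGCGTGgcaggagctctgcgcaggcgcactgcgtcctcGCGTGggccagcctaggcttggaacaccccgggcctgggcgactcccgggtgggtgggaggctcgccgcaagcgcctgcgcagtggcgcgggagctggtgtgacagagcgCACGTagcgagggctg
P4ha2, chr11:54100674-54100923, plus strand: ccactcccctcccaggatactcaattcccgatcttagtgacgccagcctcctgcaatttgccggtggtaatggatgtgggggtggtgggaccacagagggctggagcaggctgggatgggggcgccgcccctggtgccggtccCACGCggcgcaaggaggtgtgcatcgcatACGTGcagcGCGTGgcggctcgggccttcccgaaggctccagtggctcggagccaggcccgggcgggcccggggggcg
P4hb, chr11:120573254-120573503, minus strand: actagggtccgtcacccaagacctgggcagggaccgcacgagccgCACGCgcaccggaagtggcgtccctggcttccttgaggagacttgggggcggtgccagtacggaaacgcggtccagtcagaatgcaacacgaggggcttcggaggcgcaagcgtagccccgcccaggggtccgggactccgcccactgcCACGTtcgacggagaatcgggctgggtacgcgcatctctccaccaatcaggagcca
*P4ha1* had 3 matches, at 163, 126 and 16 bases before the start, *P4ha2* had 3, at 107, 78 and 69, and *P4hb* had 2, at 205 and 56. Of the 9 genes with a promoter in the RefSeq table (all but *Plod2*), 8 had at least 1 match, *Sparc* being the exception, against 38.6% of 32817 promoter windows of the same length. The windows of *Col4a1* and *Col4a2* lay wholly in annotated exons of the other gene. That of *Plod3* had 208 of its 250 bases in exons of *Znhit1*. The *Sparc* window had 238 bases in exons of *Sparc* itself, as the start used, at 55420080, lies inside the gene. The start used for *P4ha2*, at 54100924, also lies inside its gene, which is annotated from 54100095. Its printed window is thus within the gene, though outside annotated exons. The windows of these genes were also richer in G and C, at 54.0% to 74.4%, than the median of 52.4% over all promoters. ACGTG alone was in 5 of the 9 and in 16.6% of all windows, and GCGTG alone in 7 and in 28.1%. The heat shock element letters GAANNTTC were in 0 of the 9, *Serpinh1* included, and in 6.69% of all windows; the inverted form TTCNNGAA was in 1, *P4ha2*, and in 7.16% of all windows. These matches describe the letters and not binding.

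Levels differed by more than 2 orders of magnitude among the genes. In control mESCs, per kilobase of transcript, *P4hb* was at 217 ± 9.10 CPM (SD, n = 4), *Sparc* at 119 ± 10.1, *Serpinh1* at 40.6 ± 8.69, *Plod3* at 19.0 ± 1.22 and *Plod2* at 12.0 ± 3.20. Each of these 5 lay above the next in every control library. *Plod1* at 5.82 ± 2.30 and *P4ha1* at 5.53 ± 0.526 overlapped, as did *Col4a1* at 1.71 ± 0.834 with *P4ha2* at 0.583 ± 0.257, and *P4ha2* with *Col4a2* at 0.538 ± 0.241 CPM per kilobase (all SD, n = 4). *Col4a1*, *P4ha2* and *Col4a2* were thus the 3 lowest and the subunit that P4H shares with general protein folding was the highest; P4HB is protein disulphide isomerase, which also works alone.

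**Figure D1:**
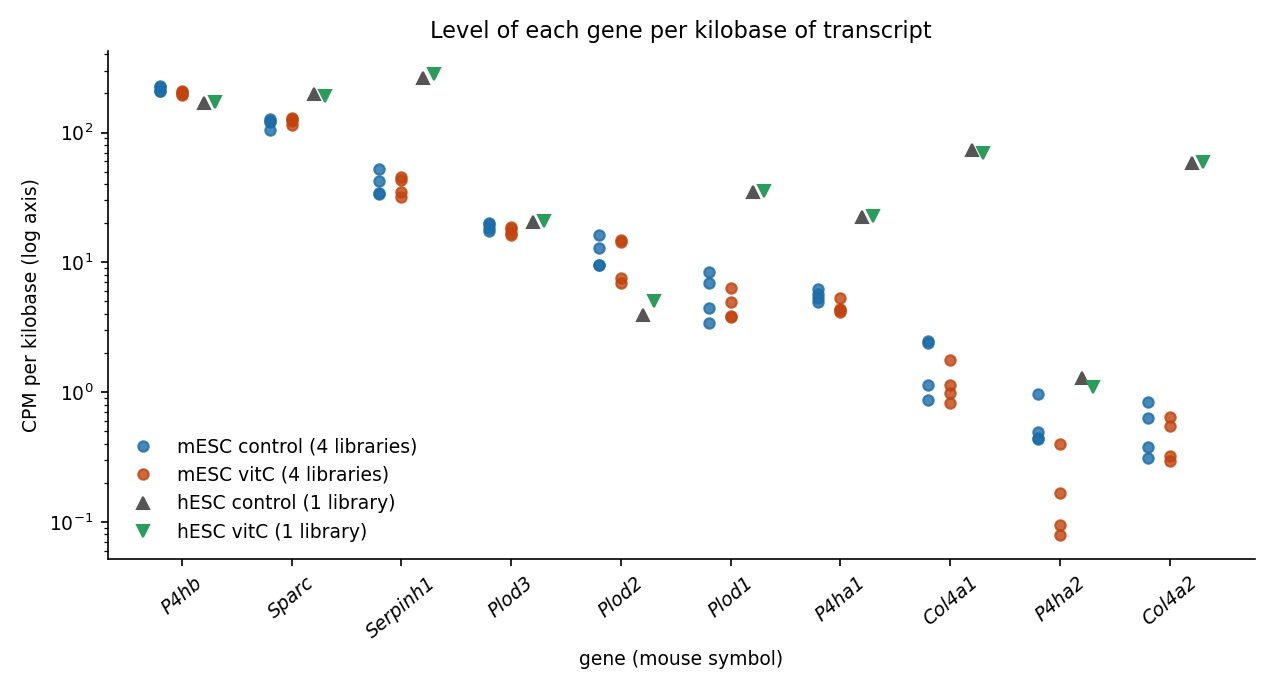
Level of each of the 10 genes in CPM per kilobase of transcript, on a log axis, for the 4 control (blue) and 4 vitC (red) mESC libraries and the hESC control (upward triangle) and vitC (downward triangle) library. Genes are ordered by their mESC control mean, from *P4hb* at 217 to *Col4a2* at 0.538; the mouse and human values were scaled separately.

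The study sequenced these libraries to ask which transposable elements respond to 24 h of vitC, and the same reads give the genes. It also tested the mESC genes and reports that the differentially expressed ones mostly rose. It called more genes than limma without the replicate number did here. With vitC, 0 of the 10 genes passed an adjusted p of 0.05 in limma without the replicate number, where 50 of 14631 genes tested (0.342%; 47 higher, 3 lower) did, counts that lay at 19 to 28 higher and 0 to 1 lower when any of the 8 libraries was left out. With the replicate block, which compares each vitC library with the control of the same number, limma called 931 genes higher and 650 lower (10.8%) and again 0 of the 10. In edgeR with the replicate block, which called 14.8% of 12337 genes, 1 of the 9 tested genes was called, *Col4a1*. Of the 10 differences, 9 were below 0 and that of *Sparc* was above, while 51.0% of all genes tested lay below 0. The median difference on the deposited log2-like scale was -0.10 over the 10 genes and -0.00 over all genes. Library by library, 3 genes (*Col4a2*, *P4ha1* and *P4ha2*) were lower with vitC in 4 of 4 pairs, as were 14.4% of all genes, and 1 (*P4ha2*) had all vitC libraries below all controls, as had 1.98%. An unadjusted p under 0.05 on the lower side was found for *P4ha1* and *P4ha2* without the block, 2 of the 10 (3.18% of all genes), and for 5 with it (11.7%). In bulk RNA, fewer cells expressing a gene and less RNA per cell cannot be told apart.

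**Figure D2:**
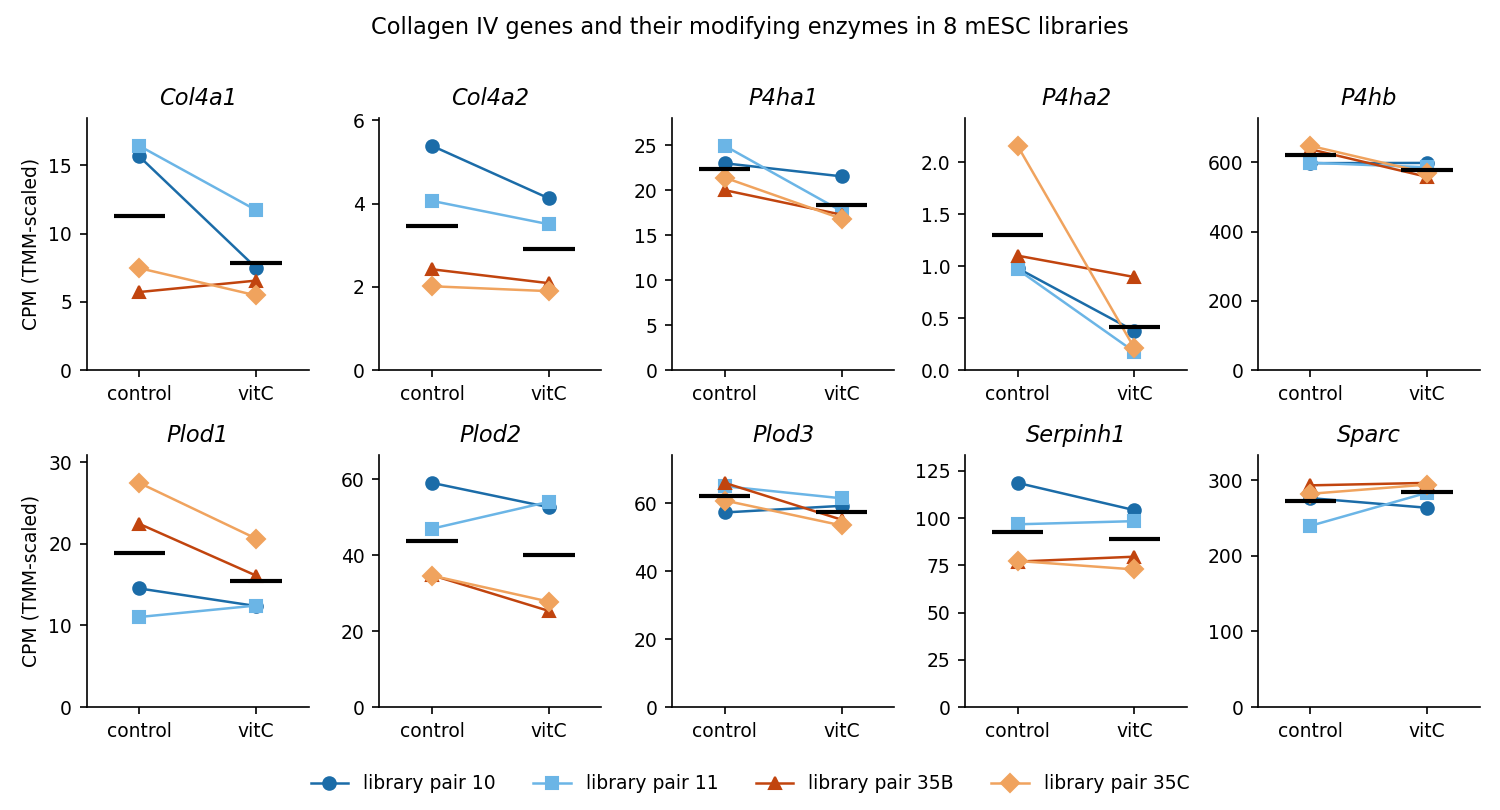
TMM-scaled CPM of each gene in the 8 mESC libraries, control on the left and vitC on the right of each panel, with lines joining libraries of the same number (10, 11, 35B, 35C) and black bars for the group means; each panel has its own axis from 0. *P4ha2* is the only gene with no overlap between the groups, and *Col4a1*, *Col4a2*, *Plod1*, *Plod2* and *Serpinh1* separate by library number.

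The collagen IV genes lie head to head on mouse chromosome 8, *Col4a1* from 11198423 to 11312826 on the minus strand and *Col4a2* from 11312805 to 11449287 on the plus strand (GRCm38), so that their first exons share 22 bases. The libraries were directional, but whether the gene counts used strand is not given in the sources used here, so a read in this overlap could be counted for either gene. *Col4a1* was at 15.7, 16.4, 5.72 and 7.47 CPM in control replicates 1 to 4, and at 7.50, 11.7, 6.56 and 5.47 with vitC. It was lower with vitC in 3 of 4 pairs and higher in the pair numbered 35B, and the groups overlapped. Its difference was -0.18 on the deposited scale (95% interval -0.50 to 0.13, limma adjusted p = 0.837), and -0.33 to -0.04 with the replicate block (limma adjusted p = 0.0914). On recovered reads, which do not compress low values, edgeR gave a log2 fold change of -0.52 without the block (SE 0.37, adjusted p = 0.828) and -0.57 with it (SE 0.16, adjusted p = 0.0212), the only call for any of the 10 genes with vitC among the fits that keep all libraries. *Col4a2*, its neighbour, was at 5.39, 4.06, 2.42 and 2.01 in control and 4.12, 3.50, 2.09 and 1.89 CPM with vitC. These values rested on 7 to 33 reads per library. Each vitC library was below its own control, but the gap within pairs was small beside the spread between pairs, and the difference was -0.06 (95% interval -0.26 to 0.15, limma adjusted p = 0.943). With the replicate block the interval was -0.182 to 0.071 (limma adjusted p = 0.622). The ratio of *Col4a2* to *Col4a1* reads within a library ranged from 0.251 to 0.556, and its log2 was -1.64 ± 0.353 in control and -1.41 ± 0.386 with vitC (SD, n = 4; exact two-sided permutation p = 0.457 over 70 labellings, 0.686 adjusted over 3 ratios).

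The prolyl 4-hydroxylase alpha subunits had the smallest p-values of the 10 genes in limma, with and without the block; in edgeR with the block that of *Col4a1* was smaller. *P4ha1* (chromosome 10, 59323296 to 59373304, GRCm38) was at 23.0, 25.0, 20.0 and 21.4 CPM in control and at 21.6, 17.7, 17.3 and 16.8 with vitC. All 4 pairs were lower with vitC, and vitC replicate 1 overlapped the controls. Its difference was -0.15 (95% interval -0.29 to -0.01, limma adjusted p = 0.635; replicate block adjusted p = 0.0797). *P4ha2* (chromosome 11, 54100095 to 54131665), the alternative alpha subunit, was scarce, with 6, 5, 5 and 15 reads in control and 2, 1, 3 and 1 with vitC. These correspond to 0.979, 0.967, 1.10 and 2.16 against 0.375, 0.175, 0.894 and 0.211 CPM, without overlap. Over the group sums of 31 and 7 reads, the ratio of vitC to control was 0.269 (exact 95% interval 0.0999 to 0.622, counting error only). The compressed difference was -0.20 (95% interval -0.36 to -0.04, limma adjusted p = 0.511; replicate block adjusted p = 0.0815), DESeq2 gave a log2 fold change of -1.79 (SE 0.83, adjusted p = 0.796), and edgeR's filter on low counts left the gene out. *P4ha2* was thus not called with vitC in any of these fits, and no fit of recovered reads with the replicate block included it.

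*P4hb* (chromosome 11, 120560298 to 120573253), the abundant beta subunit, was measured most precisely, at 598, 599, 638 and 648 in control and 598, 586, 558 and 569 CPM with vitC. The controls numbered 35B and 35C were the highest and their vitC partners the lowest, while the pair numbered 10 was level. Its difference was -0.10 (95% interval -0.23 to 0.03, limma adjusted p = 0.775; replicate block adjusted p = 0.0982). The log2 ratio of *P4ha1* to *P4hb* reads was -4.79 ± 0.189 in control and -4.98 ± 0.128 with vitC (SD, n = 4), lower in 4 of 4 pairs (exact two-sided permutation p = 0.171, 0.514 adjusted over 3 ratios). Sign flips within the pairs gave p = 0.125 in an exact test, the smallest that 4 pairs allow.

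The lysyl hydroxylases were not called either. *Plod1* (chromosome 4, 147909753 to 147936767), which acts on helical lysines, was at 14.5, 11.03, 22.4 and 27.5 in control and 12.4, 12.4, 16.1 and 20.6 CPM with vitC. Pairs 10, 35B and 35C were lower with vitC and pair 11 was higher (difference -0.13, 95% interval -0.44 to 0.19, limma adjusted p = 0.906). With the replicate block the interval was narrower, -0.248 to -0.002 (limma adjusted p = 0.189). *Plod2* (chromosome 9, 92542223 to 92608428), the enzyme of telopeptide lysines in fibrillar collagens, was at 59.1, 47.0, 34.8 and 34.6 in control and 52.7, 54.1, 25.3 and 27.8 with vitC. Again pair 11 alone was higher (difference -0.11, 95% interval -0.51 to 0.29, limma adjusted p = 0.943). The block gave an interval of -0.231 to 0.012 (limma adjusted p = 0.254). *Plod3* (chromosome 5, 136987019 to 136996648), whose protein also adds sugars to hydroxylysine and is needed for collagen IV secretion, was at 57.3, 65.0, 66.0 and 60.8 in control and 59.2, 61.5, 55.1 and 53.5 with vitC. Here pair 10 was the one that was higher (difference -0.09, 95% interval -0.22 to 0.05, limma adjusted p = 0.819). The interval with the block was -0.187 to 0.014 (limma adjusted p = 0.282).

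The chaperone and the matrix protein had small differences of opposite sign. *Serpinh1* (chromosome 7, 99345376 to 99353239) was at 119, 96.7, 77.0 and 77.3 in control and 104, 98.4, 79.6 and 72.8 CPM with vitC, higher in 2 pairs and lower in 2 (difference -0.04, 95% interval -0.32 to 0.24, limma adjusted p = 0.973). With the replicate block its interval was -0.134 to 0.052 (limma adjusted p = 0.621). *Sparc* (chromosome 11, 55394500 to 55423183) was at 276, 239, 293 and 282 in control and 263, 283, 296 and 294 with vitC, higher in 3 of 4 pairs. Its difference was 0.06 (95% interval -0.10 to 0.22, limma adjusted p = 0.918), with an interval of -0.031 to 0.145 in the replicate block fit (limma adjusted p = 0.435).

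More of the genes differed between library numbers than with vitC. With treatment in the model, 6 of the 10 genes differed between the libraries numbered 35B and 35C and those numbered 10 and 11 (limma, adjusted p under 0.05), where 5924 of 14631 genes (40.5%) did. Of all genes, 21.5% were called lower and 18.9% higher in 35B and 35C. Each number gives a control and a vitC library, so this comparison rests on 4 numbers, 2 against 2, and its p-values, which treat the 8 libraries as independent, are too small. With the mean of both libraries of each number as 1 value, a fit chosen after seeing the data, limma called 5 of the 10 genes and 32.8% of all genes; *Sparc* was the gene lost (adjusted p = 0.103). The libraries of both kinds did not overlap for 5 of the 10, against 32.1% of all genes. With so many genes differing between the numbers, the calls are not particular to collagen. Both collagen IV chains were lower in 35B and 35C: *Col4a1* averaged 12.8 CPM in 10 and 11 and 6.31 in 35B and 35C, a ratio of 2.04 (difference -0.37, SE 0.07, limma adjusted p = 0.000383), and *Col4a2* averaged 4.27 and 2.10, a ratio of 2.03 (difference -0.23, SE 0.06, limma adjusted p = 0.00474). *Plod2* at 53.2 and 30.6 (difference -0.52, SE 0.06, limma adjusted p = 2.12e-06) and *Serpinh1* at 104 and 76.7 (difference -0.35, SE 0.05, limma adjusted p = 4.78e-05) went the same way. *Plod1* went the other way, at 12.6 and 21.7 CPM (difference 0.37, SE 0.07, limma adjusted p = 0.000183). The sixth was *Sparc*, with a small difference of 0.13 (SE 0.05, limma adjusted p = 0.0396), which lost its call without control replicate 2, 3 or 4 or vitC replicate 1, 3 or 4 (limma adjusted p up to 0.182, without control replicate 2). *P4ha1*, *P4ha2*, *P4hb* and *Plod3* were not called.

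As *Plod1* and *Plod2* moved in opposite directions between the numbers, the ratio of *Plod2* to *Plod1* reads within a library ran from 1.26 in control replicate 4 to 4.33 in vitC replicate 2. Its log2 averaged 2.07 in 10 and 11 and 0.51 in 35B and 35C, with no overlap. VitC and control differed by 0.05 (exact two-sided permutation p = 0.714, 0.714 adjusted over 3 ratios), higher with vitC in 4 of 4 pairs. Sign flips within the pairs gave p = 0.125 in an exact test, the smallest that 4 pairs allow. *Plod2* thus outnumbered *Plod1* in every library, and by more in 10 and 11 than in 35B and 35C. Ribosomal RNA made up 42.0% to 51.5% of the repeat subfamily counts in 10 and 11 and 60.0% to 63.1% in 35B and 35C. The labels name an rRNA depletion kit or an mRNA isolation kit without saying which was used for which library, while the study's methods name rRNA depletion only. The part of this difference in library content in the gene values was not tested, and it cannot be told apart from the library number.

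**Figure D3:**
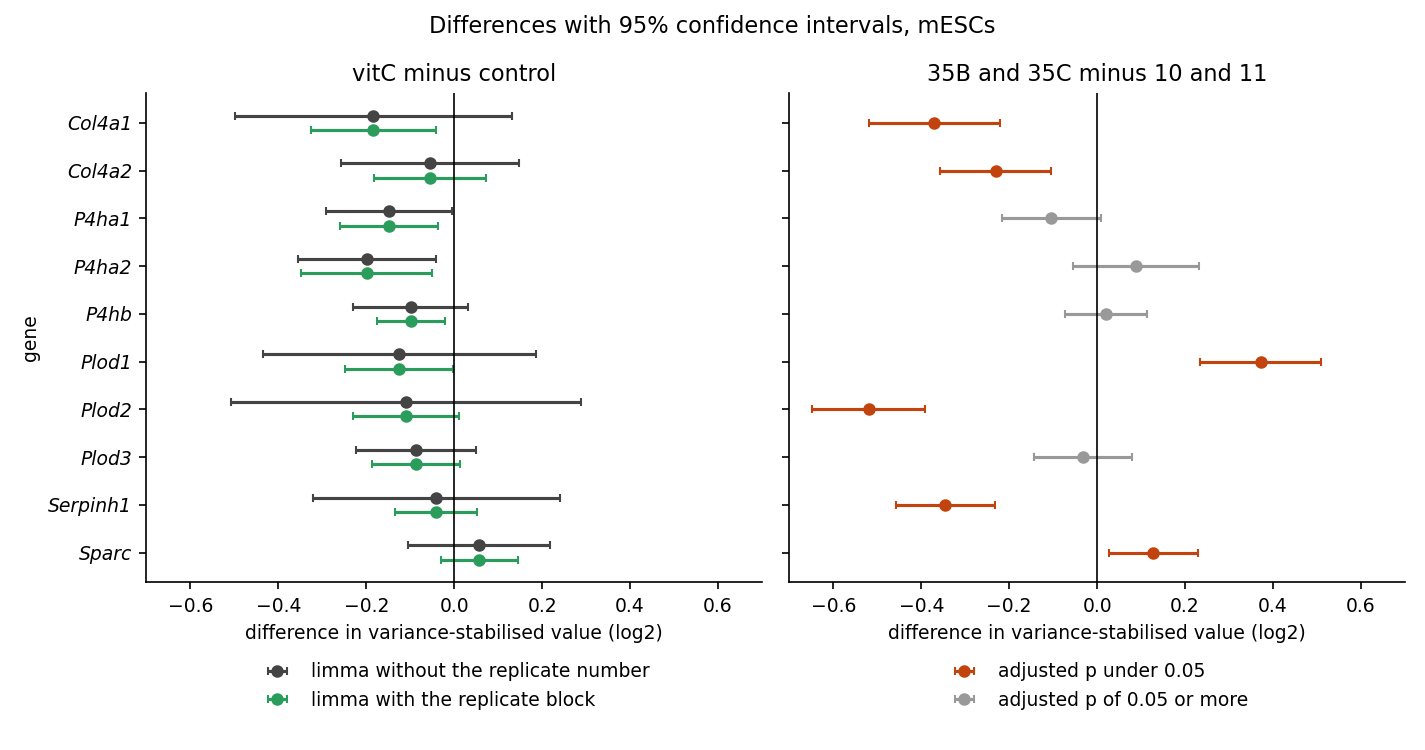
Difference of each gene on the deposited log2-like scale with its 95% interval from limma, for vitC minus control on the left (grey without the replicate number, green with the replicate block) and for libraries 35B and 35C minus 10 and 11 on the right (orange where the adjusted p is under 0.05). On the left 9 of 10 points lie below 0, between -0.20 and -0.04, and on the right 6 genes are called, *Plod2* lowest at -0.52 and *Plod1* highest at 0.37.

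Whether the vitC difference itself depended on the library number was tested as an interaction. It was called for 0 of 14631 genes in limma (0%) and for 0 in edgeR, with 601 and 426 genes at an unadjusted p under 0.05. *Col4a1* had vitC differences of -0.43 and -0.22 in pairs 10 and 11 and of 0.06 and -0.15 in 35B and 35C (interaction 0.28, 95% interval 0.01 to 0.56). *Plod2* had -0.11 and 0.14 in the former and -0.27 and -0.19 in the latter (interaction -0.25, 95% interval -0.48 to -0.01). *P4hb* had 0.01 and -0.04 in pairs 10 and 11 and -0.19 and -0.18 in 35B and 35C (interaction -0.17, 95% interval -0.35 to 0.01). None of the 10 genes was called after adjustment over all genes, also with the replicate block, where limma called 13 genes in all. With the block these 3 genes had an unadjusted limma p under 0.05, as had 1074 of 14631 genes.

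The other genes of the pathway were described from lists. For the list counts here and below, limma called 0.342% of all genes tested without the block and 10.8% with it. Of 9 tested genes among the other collagen-modifying and folding genes of the endoplasmic reticulum (prolyl 3-hydroxylases, their partners, collagen galactosyltransferases), 0 were called without the block and 1 with it, *Ppib*, the prolyl isomerase cyclophilin B, at 186 ± 14.0 CPM in control and 165 ± 11.4 with vitC (SD, n = 4; difference -0.15, replicate block limma adjusted p = 0.0162). The list's median difference was -0.05 against -0.00 for all genes. Of 7 tested genes of collagen export from the endoplasmic reticulum, 0 were called in either fit (median 0.04). Of 9 tested genes of processing and crosslinking, *Pcolce2*, an enhancer of procollagen C-proteinase, was lower with the block (42.1 ± 13.6 against 32.8 ± 14.0 CPM, difference -0.25, replicate block limma adjusted p = 0.00296; list median -0.05).

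Basement membrane partners of collagen IV moved in both directions. Of 10 tested, 0 were called without the block, and with it 4 were higher and 3 lower (list median 0.02). *Agrn*, the proteoglycan agrin, was at 328 ± 41.5 in control and 389 ± 27.0 CPM with vitC (difference 0.23, replicate block limma adjusted p = 0.000524), and *Nid2*, which bridges laminin and collagen IV, was at 592 ± 49.5 and 680 ± 52.5 (difference 0.19, replicate block limma adjusted p = 0.000452). *Lamb1*, a laminin beta chain, was at 52.6 ± 17.9 and 35.2 ± 13.4 (difference -0.39, replicate block limma adjusted p = 1.91e-05). Between library numbers 9 of the 10 were lower in 35B and 35C and 1, *Nid1*, was higher (list median -0.28 against -0.01 for all genes), where 3152 of 14631 genes were lower and 2772 higher. Among 5 tested collagen receptors, 2 were lower with the block, *Itgb1*, the integrin beta 1 chain (difference -0.18, replicate block limma adjusted p = 0.0174), and *Ddr1*, a receptor kinase that binds collagen (difference -0.19, replicate block limma adjusted p = 0.0385), with a list median of -0.06. Of 5 tested relatives of *Sparc*, *Fstl1* was lower (difference -0.22, replicate block limma adjusted p = 0.00170) and *Spock1* was higher, with 0 reads in every control and 1 to 4 reads in each vitC library (replicate block limma adjusted p = 0.0151; list median -0.06).

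Of 41 other collagen chains in the table, 23 were tested and 10 were at 0 in all 8 libraries. The 5 highest in control, per kilobase, were *Col18a1* at 25.3, *Col5a2* at 2.72, *Col5a1* at 1.22, *Col11a1* at 0.563 and *Col1a2* at 0.410 CPM. The place of *Col1a2*, with 36, 15, 0 and 0 control reads, rested on control replicate 1, without which it was at 0.181 CPM per kilobase, below *Col27a1* at 0.243. Without the block 1 chain was called, *Col6a3*, with 1, 0, 0 and 0 reads in control and 6, 7, 6 and 8 with vitC (difference 0.43, SE 0.06, limma adjusted p = 0.0215). With the block 3 were higher and 1 lower, among them *Col5a2*, a fibrillar chain, at 18.0 ± 13.4 and 36.9 ± 18.6 CPM (SD, n = 4; difference 0.63, replicate block limma adjusted p = 2.97e-07), and *Col11a1* (difference 0.42, replicate block limma adjusted p = 0.00355). The list's median difference was 0.02. Of the other collagen IV chains, *Col4a3* and *Col4a4* were at 0 in all libraries, *Col4a5* had 5, 1, 0 and 0 reads in control and 5, 2, 0 and 0 with vitC, and *Col4a6* had 1 read in replicate 2 of each group.

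Since *P4ha1*, *P4ha2* and *Plod2* are among the known HIF targets, 12 other hypoxia-inducible genes were set beside them. Of 11 tested, 1 was lower without the block, *Ldha*, lactate dehydrogenase A, at 289 ± 46.1 and 166 ± 16.3 CPM (SD, n = 4; difference -0.71, SE 0.10, limma adjusted p = 0.0221). With the block 4 were lower and 1 higher, including *Eno1* (difference -0.24, replicate block limma adjusted p = 0.000170) and *Pgk1* (difference -0.22, replicate block limma adjusted p = 0.00165), both glycolytic enzymes. The list's median difference was -0.14, against -0.00 over all genes, and those of *P4ha1*, *P4ha2* and *Plod2* were -0.15, -0.20 and -0.11. Between library numbers the list went the other way from *Plod2*: 6 of its genes were higher and 2 lower in 35B and 35C (median 0.21), where *Plod2* was at -0.52, *P4ha1* at -0.10 and *P4ha2* at 0.09. Whether these genes share a cause was not tested.

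In hESCs, with 1 library a group, no test of the treatment was possible, and intervals cover counting error only. *COL4A1* was at 7416 reads in control and 7857 with vitC, or 483 and 457 CPM, here as a plain share of gene reads (log2 ratio of shares -0.08, exact Clopper-Pearson 95% interval -0.12 to -0.03), and *COL4A2* was at 5775 and 6512 reads, 376 and 379 CPM (log2 ratio 0.01, -0.04 to 0.06). The chains were thus abundant in these cells. Per kilobase they were at 73.8 and 58.3 CPM in the control library, against 1.71 and 0.538 in control mESCs, though the tables were made and scaled separately and the species, medium and pluripotent state differ together. *P4HA1* had 939 and 1074 reads (log2 ratio 0.03, -0.10 to 0.16), *P4HA2* 89 and 86 (-0.21, -0.66 to 0.23) and *P4HB* 6343 and 7210 (0.02, -0.03 to 0.07). As in mESCs, *P4HA2* was the scarcer alpha subunit. *PLOD1* had 1593 and 1814 reads (0.03, -0.07 to 0.12), *PLOD2* 228 and 322 (0.34, 0.09 to 0.59) and *PLOD3* 887 and 1009 (0.02, -0.11 to 0.16). *SERPINH1* had 8270 and 10027 reads (0.12, 0.07 to 0.16) and *SPARC* 10519 and 11273 (-0.06, -0.10 to -0.02).

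For 6 of the 10 human genes the interval included 0, and for *PLOD2* and *SERPINH1* it lay above and for *COL4A1* and *SPARC* below. Over 12125 human genes with at least 100 reads in both libraries together, the median log2 ratio was 0.02 and the 5th and 95th percentiles were -0.30 and 0.38. All 10 genes lay inside this range. The range was not matched for depth and includes genes of few reads, whose counting error is wider. It thus cannot show whether the ratios of deeply read genes such as *SERPINH1*, *COL4A1* and *SPARC* are ordinary. In 10.3% of genes the ratio was as far from 0 as that of *PLOD2*, and in 46.6% as far as that of *SERPINH1*. Without replicates none of these ratios can be attributed to vitC.

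**Figure D4:**
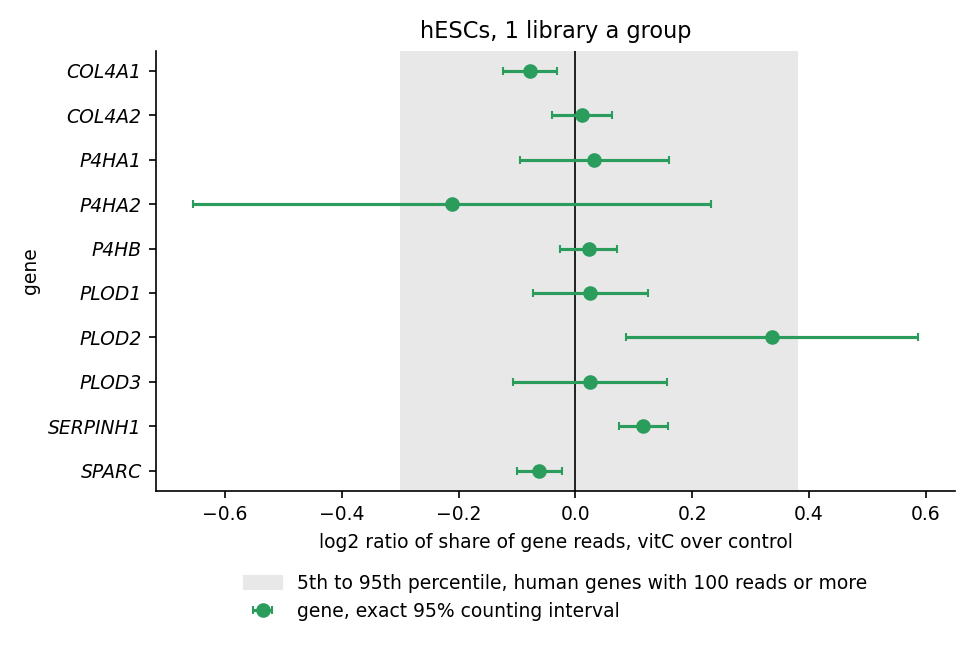
Log2 ratio of each gene's share of gene reads, vitC over control, in the hESC libraries (1 a group), with exact 95% counting intervals as bars and the 5th to 95th percentile of 12125 human genes as a grey band. All 10 points lie inside the band, *PLOD2* highest at 0.34 and *P4HA2* lowest at -0.21 with the widest interval.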

How the data were processed

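RNA-seq of 8 mESC and 2 hESC libraries was analysed, grouped by the labels. Gene values were deposited as variance-stabilised numbers (log2 scale), which the authors derived with DESeq2 from SQuIRE counts on mm10 or hg38. The deposited expected counts of repeat subfamilies served only for the ribosomal RNA share, and 4 other columns of per-sample values were not used. Undoing the transformation returned whole reads, within 0.01 read, for 100% of nonzero values.

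The main test was limma 3.58.1 with trend, in R 4.3.3, on the deposited values of genes detected in at least 4 libraries, Benjamini-Hochberg adjusted over all of them. Differences on this scale understate the change of low genes. Recovered reads were tested with edgeR 4.0.16 (TMM, quasi-likelihood) and DESeq2 1.42.0; levels per kilobase use 1 GENCODE transcript a gene. Ratios used a pseudocount of 0.5 read. Intervals from limma measure the spread between libraries; those of the *P4ha2* read sums and of the hESC ratios cover counting error only, as reads are not independent molecules. The scripts were tested on simulated counts that held no difference between library numbers and had changes only in genes with many reads. The fits were thus not tested on such differences or on changes in genes of few reads, such as *P4ha2* and *Col4a2*.

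Libraries with the same number are paired: the labels give a control and a vitC library each number, and over genes their residuals from the group averages had correlations of 0.626 to 0.765, which include the difference between 10 and 11 and 35B and 35C; within these, the correlations were 0.194 and 0.247. The study's methods name no such term, so the replicate block is an alternative, as are other filters, tools and normalizations and subsets of libraries. The genes and lists were chosen with earlier results of these data known. All 10 genes are named and, from each list, up to 3 with the smallest adjusted p without the block among those called in either limma fit, besides the 5 highest other collagen chains. Genes outside this rule (*Nid1*, *Col4a3*, *Col4a4*, *Col4a5*, *Col4a6*, *Col27a1*, *Pdk1*, *Vegfa*) were named after their values were seen. *Mia3* was not analysed here.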

Additional observations from a re-analysis of the deposited data

Results flagged for a closer look

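*P4ha2* in control replicate 4 stood apart from the other controls, at 6.70 on the deposited log2-like scale against 6.52, 6.51 and 6.54, or 15 reads against 6, 5 and 5. Its gap to the nearest of the others was 0.861 of the group's range, above Dixon's 95% critical value for 4 samples. Of 20 groups examined (10 genes in control and vitC), this was the only such case, and chance gives about 1 in 20. Without this library the *P4ha2* difference with vitC was -0.15 (limma adjusted p = 0.953).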

How the results depend on the processing

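Limits were the 4 pairs, the few reads of *P4ha2* and *Col4a2*, and the spread between library numbers, which fits without the block count as error. Of the values for the 10 genes under alternatives, 7 lost a call (*Sparc* between library numbers), 4 gained one with vitC, all lower and with the replicate block, and the hESC *PLOD2* ratio was 0.34 from read shares and 0.06 as a difference of the compressed deposited values. The sign turned in 17 tested values, none called in either setting. Leaving out each library in turn, the vitC difference ran from -0.107 to 0.00588 for *Col4a2*, -0.221 to 0.00949 for *Plod2* and -0.106 to 0.0594 for *Serpinh1*, and that of *Plod2* was 0.0128 in replicates 1 and 2. Between library numbers *P4hb* ran from -0.000229 to 0.0433. The interaction ran from -0.00453 to 0.106 for *Col4a2*, -0.0611 to 0.0862 for *P4ha1* (-0.00414 in edgeR), -0.127 to 0.0618 for *P4ha2*, -0.0667 to 0.164 for *Serpinh1* and -0.136 to 0.0407 for *Sparc*. The vitC difference in the log2 ratio of *Plod2* to *Plod1*, 0.05 with all libraries and also not called, ran from -0.258 to 0.349, below 0 without control replicate 3 or 4 or vitC replicate 1 or 2. Without a test, the hESC *COL4A2* ratio turned from 0.01 to -0.00 under both other scalings and the log2 ratio of *Col4a2* to *Col4a1* differed by -0.00 in replicates 3 and 4, against 0.24. The other 427 values for the 10 genes stayed on their side of the threshold. The number of the 10 genes called with vitC was 1 in edgeR with the replicate block (*Col4a1*), and in limma with the replicate block, chosen after seeing the data, 1 without both libraries of pair 1 (*P4hb*, difference -0.13, adjusted p = 0.0474), 1 without pair 2 (*Plod2*, -0.19, adjusted p = 0.0471), 1 without pair 3 (*Col4a1*, -0.27, adjusted p = 0.0183) and 0 without pair 4. It was 0 without each single library. Over all genes, the counts called higher and lower with vitC were 931 and 650 in limma with the replicate block, 1055 and 777 in edgeR with it, 557 and 313, 631 and 437, 759 and 531, and 617 and 342 in limma with it and without pairs 1 to 4 in turn, 95 and 16 in DESeq2, 27 and 1 for genes detected in all 8 libraries, 147 and 28 in replicates 1 and 2, 4 and 0 in replicates 3 and 4, and 19 to 28 and 0 to 1 without each library. Quantile normalization gave 5 lower. The interaction had 13 calls over all genes with the replicate block, 0 of them among the 10. Why these counts differ was not tested, except that subsets hold fewer libraries.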
